A study of Mus musculus with 29 samples.

Results

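Gastrocnemius muscle of trained mice was compared between 3 animals that combined calorie restriction with treadmill running (CREX) and 4 animals that ran on the treadmill with free access to food (EX), so that the comparison shows what restriction adds in mice that all trained. These 7 libraries, 1 per mouse, are part of 29 libraries of the series, and all 24770 gene symbols of its count table were considered, of which 13112 passed the filter on low counts. All 7 mice were male wild-type C57BL/6J animals, aged 8 weeks when the interventions began. Running was done for 1 h a day on 5 days a week at 12 m/min on a 5° incline for 8 weeks, and food in the CREX group was lowered by 10% per week to a final 70% of free intake. Every mouse was fasted for 6 h and killed 24 h after its last run. A further 4 sedentary control mice and 3 sedentary restricted mice (CR) of the same muscle were used for the same question in untrained animals. Replicate numbers do not say whether mice shared a cage or a day, and p-values measure the spread between these animals only. In bulk muscle, fewer cells of a type and less RNA per cell cannot be told apart.

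Restricted feeding lowers insulin and raises circulating glucocorticoids. In muscle fibres the glucocorticoid receptor and the FOXO transcription factors then act on genes for protein breakdown, amino acid export and sparing of glucose, while insulin and growth factor signalling through mTOR sets the rate of protein synthesis. Gastrocnemius is a mixed limb muscle in which most fibres are fast, with the oxidative slow and type IIA fibres gathered in its deep part. Endurance running is known for raising mitochondrial content in such fibres, and the matrix, vessels and satellite cells around the fibres respond to load and to nutrition.

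The libraries held 23068425 to 23283526 counts each, with 17006 to 17766 genes detected. Levels are given as CPM, the counts relative to library size after TMM scaling, listed for CREX replicates 1 to 3 and then for EX replicates 1 to 4, and 3 counts, the floor below which a level is read as a bound, correspond to 0.121 to 0.141 CPM. Summed over 7 markers of skeletal muscle fibres the level was 101038 to 138701 CPM, and all 7 were tested and gave 0 DEGs. A gene counted as differentially expressed (DEG) when edgeR's quasi-likelihood test gave a Benjamini-Hochberg adjusted p below 0.05 together with a change of more than 1.5-fold, and log2 fold changes are CREX over EX. The 13 mRNAs of the mitochondrial genome took 27.3, 18.5 and 19.6% of all counts in the CREX mice and 33.5 to 35.7% in the EX mice. Scaling to library totals in place of TMM moved the median log2 fold change of all genes from 0.00 to 0.16, and the share of lower genes among the DEGs from 58.3 to 29.6%. On the first principal component, which held 64.3% of the variance of the 500 most variable genes, the EX mice lay between 14.8 and 19.3, CREX replicates 2 and 3 at -31.6 and -34.4, and CREX replicate 1 at -4.38. CREX replicate 1 thus stood apart from the other CREX mice, and counts are also given without it.

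Restriction changed 1163 of 13112 genes in trained muscle (8.87% of those tested). Of these, 485 were higher in CREX (3.7% of the genes tested) and 678 were lower (5.17%). More than 2-fold changes made up 556 DEGs and more than 4-fold changes 107. In 1134 of the 1163 DEGs the CREX and EX mice did not overlap, against 27.7% of all genes tested. Selecting DEGs on the same mice made this separation likely. Without CREX replicate 1 there were 2570 DEGs (954 higher, 1616 lower, or 7.16, 12.1 and together 19.3% of the genes then tested), which held 1128 of the 1163. Leaving out CREX replicate 2 left 343 DEGs (172 higher, 171 lower), CREX replicate 3 left 600, and EX replicates 1 to 4 left 566, 490, 566 and 697. Counts per gene list below are to be read beside the shares over all genes. Those with a mouse left out move with these totals. All 1163 DEGs kept their direction in each of these 7 fits, which their selection on the same mice made likely. Of them, 285 were called in each of the 7 (139 higher and 146 lower).

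**Figure D1:**
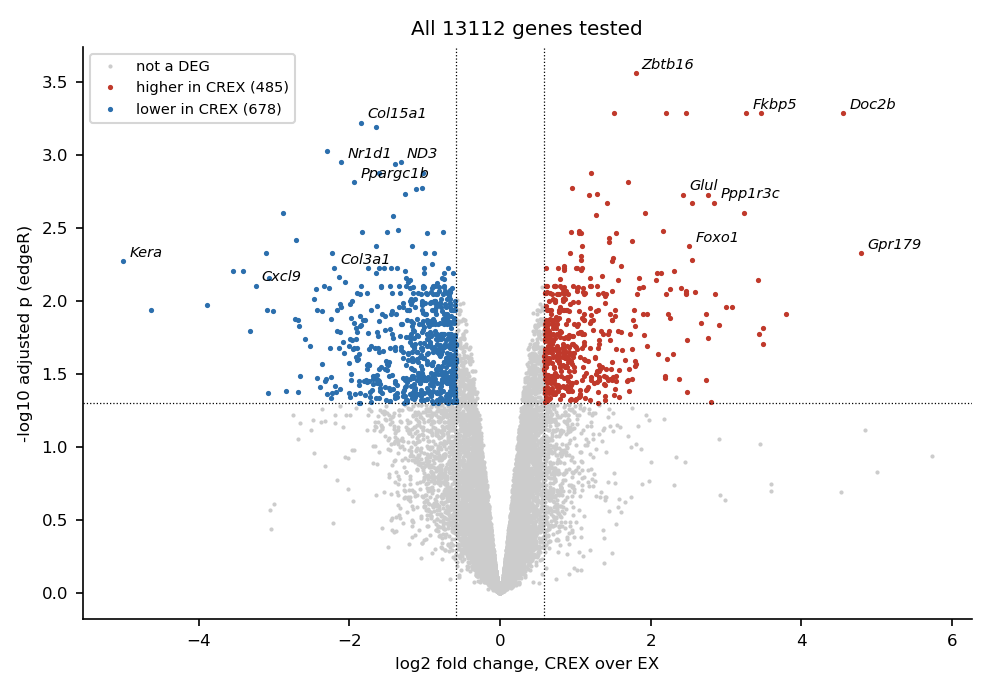
Log2 fold change of CREX over EX (x axis) against -log10 of the adjusted p (y axis) for each gene tested, with 485 higher and 678 lower DEGs coloured. Zbtb16, Fkbp5 and Doc2b are named at the upper right, and Col15a1, Nr1d1 and ND3 at the upper left.

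The mice also differed in fibre type mRNAs. Myh2, the myosin heavy chain of type IIA fibres, stood at 2780.3, 259 and 211 CPM in the CREX mice and 3633, 3518, 2137 and 2359 CPM in the EX mice. Myh1, the myosin of type IIX fibres, stood at 5192, 420.4 and 826 CPM in the CREX mice and 5622, 4524, 2615 and 3458 CPM in the EX mice. In CREX replicates 2 and 3 both were below every other muscle library of the series, where Myh2 was at 1082 CPM or more and Myh1 at 1524 CPM or more. Myh7, the slow myosin, was at 108, 6.296 and 0.121 CPM in the CREX mice and 14.4, 414, 677 and 166 CPM in the EX mice, so EX replicate 1 was also low in it. CREX replicate 1 lay within the EX range for these 3 genes. The slow fibre list of 14 contractile genes had a median log2 fold change of -1.5 with 0 DEGs in either direction, and of -3.10 with 7 lower DEGs without CREX replicate 1. Its median deviation from the EX mean was -0.14, -2.92 and -3.00 in the CREX mice and -0.68 to 0.58 in the EX mice on the log2 scale. Myh4, the myosin of type IIB fibres, was at 33309, 49430.3 and 38519.8 CPM in the CREX mice and 22086, 28411, 29311 and 32348 CPM in the EX mice and did not pass the test (adjusted p = 0.0713). Whether the same part of the muscle was taken from each mouse is not stated, and its part in the results below was not tested.

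**Figure D2:**
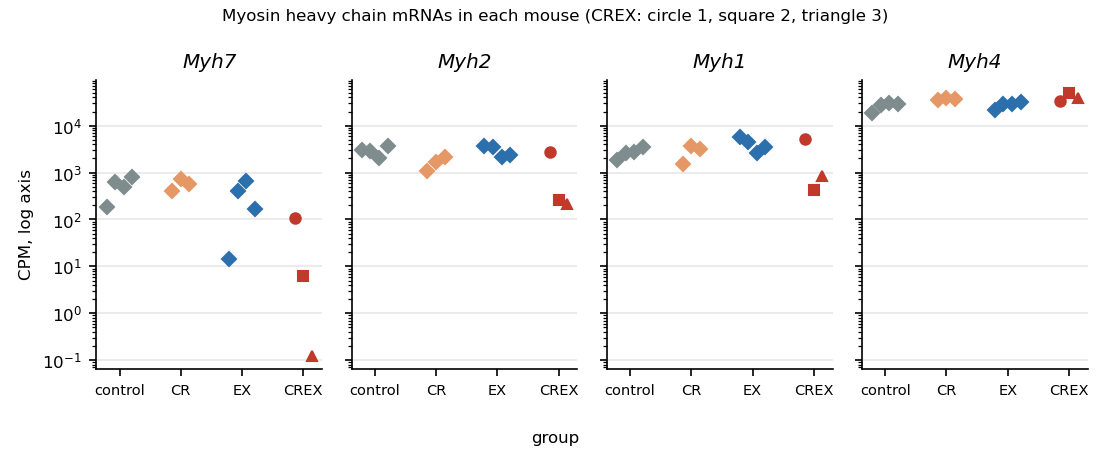
Levels of the 4 adult myosin heavy chain mRNAs in each of 14 muscle libraries (CPM, log axis) by group, 1 symbol per mouse. CREX replicates 2 and 3 (square and triangle) lie below all other mice for Myh2 and Myh1, while CREX replicate 1 (circle) lies among the EX mice.

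The 10 largest rises were taken among DEGs whose libraries did not overlap and whose higher group reached 1 CPM. Doc2b, a calcium sensor of vesicle fusion that takes part in insulin-stimulated glucose transporter traffic (chromosome 11, 75768270 to 75796060 of GRCm38), stood at 3.35, 3.65 and 5.498 CPM in the CREX mice and 0.0898, 0.135, 0.315 and 0.141 CPM in the EX mice (log2 fold change 4.56 ± 0.36 (SE), adjusted p = 0.000513). The lowest CREX mouse was thus more than an order of magnitude above the highest EX mouse. Gpr179, an orphan receptor known from the retina, was at 0.693, 1.24 and 1.38 CPM in the CREX mice and 0, 0.0898, 0.04502 and 0 CPM in the EX mice, at least 7.84-fold higher in CREX with the EX mice set to 3 counts per library (adjusted p = 0.00468). Plekhh1, a protein with pleckstrin homology domains, stood at 3.79, 6.34 and 5.66 against 0.449, 0.404, 0.405 and 0.6098 CPM (log2 fold change 3.47 ± 0.25 (SE), adjusted p = 0.000513). Gabrr2, a subunit of an ionotropic GABA receptor, was at 4.73, 11.9 and 23.8 CPM in the CREX mice and 1.08, 0.987, 1.26 and 0.469 CPM in the EX mice (log2 fold change 3.80 ± 0.58 (SE), adjusted p = 0.0122). Scn3b, an auxiliary subunit of sodium channels, was at 3.26, 9.403 and 8.61 CPM in the CREX mice and 0.808, 0.718, 0.8103 and 0.6098 CPM in the EX mice (log2 fold change 3.24 ± 0.36 (SE), adjusted p = 0.00252). In Gabrr2 and Scn3b, CREX replicate 1 was the lowest CREX mouse. It lay above every EX mouse, as the way of choosing these genes required.

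Mybph, a myosin binding protein of fast muscle, stood at 342, 209 and 308 CPM in the CREX mice and 36.9, 20.9, 58.5 and 18.3 CPM in the EX mice (log2 fold change 3.08 ± 0.44 (SE), adjusted p = 0.011), and CREX replicate 1 was the highest. Arhgap26, a GTPase-activating protein, rose by 3.50 ± 0.56 (SE) on the log2 scale, and Srrm4os, a non-coding transcript antisense to Srrm4, by 3.00 ± 0.50 (adjusted p = 0.0153 and 0.011). The strand setting is not stated, so reads from the opposite strand may be counted for Srrm4os. The call of Arhgap26 was lost without CREX replicate 2, where its log2 fold change was 2.86. All of these genes but Gpr179 had log2 fold changes between 2.47 and 4.33 for CR against control in sedentary muscle and were DEGs there as well, and Gpr179 was a DEG there with 0 counts in all 4 control mice. Ddit4 and Fkbp5, which complete the 10, are described with the glucocorticoid response.

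The 10 largest falls were chosen in the same way. Kera, the small proteoglycan keratocan of dense connective tissue, was at 0.0816, 0 and 0.0404 CPM in the CREX mice and 2.15, 0.943, 1.89 and 0.891 CPM in the EX mice, at least 11.8-fold lower in CREX with the CREX mice set to 3 counts per library (adjusted p = 0.00536). Cxcl9, a chemokine induced by interferon gamma, was at 0.285, 0.373 and 0.0809 CPM in the CREX mice and 2.2, 1.53, 3.87 and 1.83 CPM in the EX mice (log2 fold change -3.24 ± 0.50 (SE), adjusted p = 0.00783). Aplnr, the apelin receptor of endothelial cells, was at 2.16, 1.37 and 0.566 CPM in the CREX mice and 5.702, 7.18, 7.79 and 9.05 CPM in the EX mice (log2 fold change -2.44 ± 0.37 (SE), adjusted p = 0.00825). Papln, a secreted glycoprotein of the matrix, was at 1.101, 0.414 and 0.445 CPM in the CREX mice and 4.4, 4.49, 4.86 and 3.38 CPM in the EX mice (log2 fold change -2.71 ± 0.34 (SE), adjusted p = 0.00381). In all 4 genes every CREX mouse was below every EX mouse, which the way of choosing them required.

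Crip3, a LIM domain protein, fell by 3.11 on the log2 scale and the non-coding transcript Irx3os by 2.88, with adjusted p = 0.00467 and 0.00252. Chrna2, a neuronal acetylcholine receptor subunit, stood at 0.5303, 0.166 and 0.0404 against 2.15, 1.44, 2.84 and 2.11 CPM and Chad, a collagen-binding protein of cartilage and tendon, at 0.5303, 0.207 and 0.202 against 3.95, 1.08, 2.21 and 3.002 CPM, and both lost their call without CREX replicate 2 (log2 fold changes of -2.59 and -2.72). Mfap4, which binds elastic fibres, ran from -3.80 to -2.20 with 1 mouse left out and lost its call without CREX replicate 2 or any of EX replicates 1 to 3. Inpp5j, a phosphatase acting on phosphoinositides, ran from -4.40 to -2.30 and was called in 1 of the 7 fits, that without CREX replicate 1. Inpp5j stood at 1.67, 0.414 and 0.0809 against 7.14, 5.296, 2.97 and 5.44 CPM, and its lowest library lay below the level of 3 counts.

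**Figure D3:**
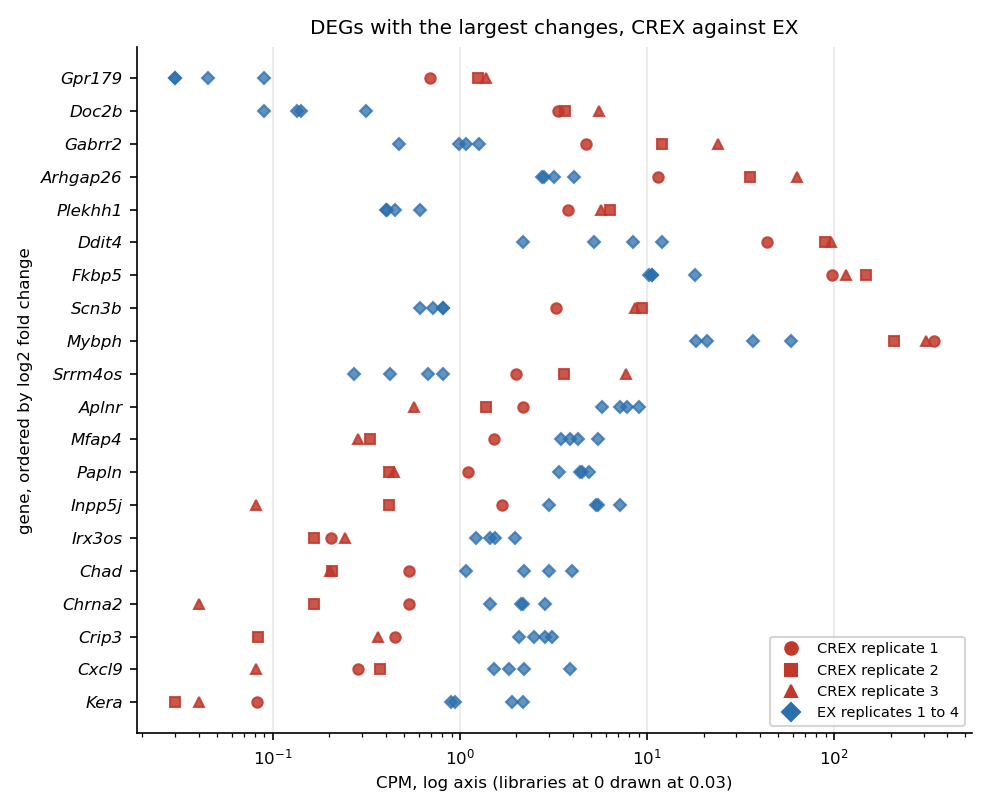
CPM (log axis) in each of the 7 mice for the 20 DEGs with the largest changes, CREX mice in red and EX mice in blue. The CREX mice lie to the right of all EX mice for the 10 genes from Srrm4os to Gpr179 and to the left for the 10 from Kera to Aplnr. The genes were chosen for this separation.

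Targets of the glucocorticoid receptor were higher as a group. Of 26 genes in the glucocorticoid response list, 14 rose and 0 fell, beside 3.7 and 5.17% of all genes tested, and the median log2 fold change was 1.32 against 0.00 over all genes. Without CREX replicate 1 there were 16, and with 1 mouse left out at a time 9 to 16, the fewest without CREX replicate 2. The median deviation from the EX mean was 0.98, 1.28 and 1.16 in the CREX mice against -0.37 to 0.37 in the EX mice, so CREX replicate 1 lay with the other CREX mice here. Zbtb16, a zinc finger repressor that had the smallest p of the list, stood at 114, 110.4 and 107 CPM in the CREX mice and 33.99, 34.6, 29.8 and 27.5 CPM in the EX mice (log2 fold change 1.80 ± 0.11 (SE), adjusted p = 0.000275). Fkbp5, a co-chaperone that dampens the glucocorticoid receptor (chromosome 17, 28398753 to 28486149), was at 97.2, 148 and 116 CPM in the CREX mice and 17.96, 10.6, 10.7 and 10.2 CPM in the EX mice (log2 fold change 3.27 ± 0.23 (SE), adjusted p = 0.000513). Both groups were well separated for these genes, and EX replicate 1 was the highest EX mouse for Fkbp5.

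Glul, the glutamine synthetase through which muscle exports nitrogen, was at 699.6, 962 and 837 CPM in the CREX mice and 189, 176, 157 and 90.1 CPM in the EX mice (log2 fold change 2.43 ± 0.24 (SE), adjusted p = 0.00187). Tsc22d3, a leucine zipper protein that mediates anti-inflammatory actions of glucocorticoids, was at 248, 336 and 295 CPM in the CREX mice and 131, 117, 94.6 and 89.5 CPM in the EX mice (log2 fold change 1.43 ± 0.16 (SE), adjusted p = 0.00212). Klf15, a regulator of amino acid breakdown, was at 68.2, 87.8 and 80.1 CPM in the CREX mice and 43.7, 41.4, 34.4 and 26.04 CPM in the EX mice (log2 fold change 1.10 ± 0.17 (SE), adjusted p = 0.00863). Sesn1, an inhibitor of mTOR signalling when leucine is scarce, was at 25.5, 27.2 and 22.6 CPM in the CREX mice and 13.3, 13.2, 12.8 and 11.96 CPM in the EX mice (log2 fold change 0.96 ± 0.10 (SE), adjusted p = 0.00168). For each of them the 3 CREX mice lay above the 4 EX mice, and the call held in each of the 7 fits with 1 mouse left out. The metallothioneins Mt1 and Mt2, which bind zinc, did not pass the test, with 29.4, 35.3 and 458 against 23.3, 12.7, 15.4 and 11.3 CPM and 10.03, 15.7 and 288 against 5.39, 3.097, 2.34 and 3.47 CPM, where all CREX mice were above the EX mice and CREX replicate 3 was far above the others. Sgk1, a kinase of ion transport, did not pass it either (0.67 ± 0.23 SE, adjusted p = 0.0883). Nr3c1, the receptor itself, stood at 55.2, 85.4 and 98.7 against 48.9, 54.1, 45.9 and 55.4 CPM (log2 fold change 0.63 ± 0.17 (SE), adjusted p = 0.0386). CREX replicate 1 lay within the EX range, and the call held only without that mouse among the 7 fits (0.46 to 0.83).

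In the atrophy and autophagy list 6 of 34 genes rose and 1 fell, with a median of 0.25 (2 to 9 higher DEGs with 1 mouse left out, the fewest without CREX replicate 2). The forkhead factor Foxo1 stood at 56.4, 67.2 and 124 CPM in the CREX mice and 16.8, 15.9, 13.3 and 11.3 CPM in the EX mice (log2 fold change 2.51 ± 0.28 (SE), adjusted p = 0.00421). Foxo3 was at 33.2, 38.1 and 40.6 against 17.8, 17.4, 14.9 and 13.7 CPM (log2 fold change 1.21 ± 0.12 (SE), adjusted p = 0.00133). Foxo6, another member of the family, went the other way, at 2.77, 0.911 and 1.46 CPM in the CREX mice and 7.05, 8.35, 8.33 and 10.98 CPM in the EX mice (log2 fold change -2.34 ± 0.34 (SE), adjusted p = 0.00783). All 3 were called in every fit with 1 mouse left out. Ddit4, an inhibitor of mTORC1 induced by glucocorticoids and energy stress, was at 43.5, 88.7 and 96.3 CPM in the CREX mice and 11.9, 8.35, 5.18 and 2.16 CPM in the EX mice (log2 fold change 3.44 ± 0.57 (SE), adjusted p = 0.0168). Ddit4 lost its call without CREX replicate 2 or 3 (log2 fold changes 3.14 to 3.84 over the 7 fits). The E3 ligase Trim63, also called MuRF1, stood at 156, 302 and 386 CPM in the CREX mice and 124, 119.6, 88.6 and 113 CPM in the EX mice (log2 fold change 1.32 ± 0.27 (SE), adjusted p = 0.0197). Fbxo32, or atrogin-1, was at 242, 471 and 459 CPM in the CREX mice and 232, 241, 159 and 169 CPM in the EX mice (log2 fold change 0.95 ± 0.24 (SE), adjusted p = 0.0362). CREX replicates 2 and 3 were high for both ligases, while CREX replicate 1 was near the EX mice. Trim63 lost its call without CREX replicate 2 or EX replicate 2, 3 or 4 (1.03 to 1.60 over the 7 fits) and Fbxo32 in all fits but that without CREX replicate 1 (0.80 to 1.19). Proteasome subunits, 31 genes, had a median of 0.25 and 0 DEGs, with 2 at an adjusted p under 0.05 alone, 1 DEG by DESeq2 and 3 without CREX replicate 1.

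The promoters of Trim63 and Klf15 are shown because both genes are known targets of the glucocorticoid receptor and both rose here. The 250 bases before the transcription start are given 5′ to 3′ on the gene's strand from RefSeq on GRCm38, with capitals for matches on either strand to 4 motifs that were searched: AGAACA, a partial site of the glucocorticoid receptor, GTAAACA, the FOXO core, the E-box CACGTG and the heat shock core TTCTAGAA. The start used for Klf15 lies inside the outer bounds of the gene (chromosome 6, 90461043 to 90491803), and the promoter table does not name its transcript.
Trim63, chr4:134314870-134315119, plus strand: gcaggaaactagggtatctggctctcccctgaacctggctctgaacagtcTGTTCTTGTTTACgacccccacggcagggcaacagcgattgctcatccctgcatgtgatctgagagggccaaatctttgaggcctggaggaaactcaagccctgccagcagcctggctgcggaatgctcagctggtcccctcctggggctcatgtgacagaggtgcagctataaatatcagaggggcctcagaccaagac
Klf15, chr6:90462326-90462575, plus strand: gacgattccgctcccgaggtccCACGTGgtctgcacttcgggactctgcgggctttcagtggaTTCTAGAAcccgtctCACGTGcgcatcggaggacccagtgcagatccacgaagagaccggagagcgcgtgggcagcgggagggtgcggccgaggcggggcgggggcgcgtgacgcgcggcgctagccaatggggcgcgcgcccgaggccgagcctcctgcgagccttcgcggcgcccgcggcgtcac
In Trim63 that partial site (-200 to -195) and the FOXO core (-194 to -188) are read on the opposite strand and lie end to end without overlap. In Klf15 the E-boxes start at -228 and -172, with the heat shock core at -187 between them. Over 9881 tested genes with a promoter in the table, AGAACA occurred in 13% of promoters, GTAAACA in 2.7%, CACGTG in 9.86% and TTCTAGAA in 0.769%. Among promoters of higher DEGs the shares were 14.6, 3.92, 10.9 and 0.84%, and among those of lower DEGs 16.3, 3.5, 7.82 and 1.44%. Of 22 promoters of the glucocorticoid response list 2 held AGAACA (9.09%, below the share over all tested genes), 2 GTAAACA, 5 CACGTG and 1 TTCTAGAA. These matches describe letters only.

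In the insulin, IGF and nutrient sensing list 4 of 42 genes rose and 2 fell (3 to 6 and 1 to 3 with 1 mouse left out), beside 3.7 and 5.17% of all genes tested. Pik3r1, the regulatory subunit of PI3 kinase, stood at 54.4, 60.1 and 25.4 CPM in the CREX mice and 14.7, 13.2, 12.8 and 9.05 CPM in the EX mice (log2 fold change 1.90 ± 0.31 (SE), adjusted p = 0.0123). Deptor, an inhibitor of mTOR, was at 72.4, 72.5 and 85.7 CPM in the CREX mice and 40.05, 50.9, 50.7 and 47.1 CPM in the EX mice (log2 fold change 0.69 ± 0.11 (SE), adjusted p = 0.00889). The CREX mice were above all EX mice for both genes, and Sesn1, whose levels are given above, also counts among the 4. The 2 that fell were Ppargc1b and Sirt3. Ppargc1b, a coactivator of mitochondrial genes, stood at 6.28, 4.18 and 3.598 CPM in the CREX mice and 16.1, 18.6, 19.9 and 16.98 CPM in the EX mice (log2 fold change -1.94 ± 0.19 (SE), adjusted p = 0.00153). Ppargc1b was called in every fit. Sirt3, a mitochondrial deacetylase, stood at 12.03, 8.04 and 7.16 against 18.6, 17.7, 13.9 and 18.3 CPM (log2 fold change -0.92 ± 0.19 (SE), adjusted p = 0.019). Sirt3 was called only without CREX replicate 1 or EX replicate 3 among the 7 fits (-1.20 to -0.77). Of 43 translation factors 3 rose and 0 fell, with a median of 0.28. Eif4ebp1, which holds back cap-dependent translation, was at 78.5, 148 and 175 CPM in the CREX mice and 60.4, 54.7, 60.2 and 54.3 CPM in the EX mice (log2 fold change 1.21 ± 0.22 (SE), adjusted p = 0.0138). Eef2k, the kinase that slows elongation, was at 68.2, 111 and 97.5 CPM in the CREX mice and 38.9, 45.5, 43.8 and 44.8 CPM in the EX mice (log2 fold change 1.08 ± 0.15 (SE), adjusted p = 0.00522). The CREX mice were above all EX mice for these 2 genes. Eif4ebp1 lost its call without CREX replicate 2 (log2 fold change 0.98).

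Among cytosolic ribosomal protein genes 13 of 83 rose and 0 fell, with a median of 0.50. The log2 fold change was above 0 in 82 of the 83. The count was 62 without CREX replicate 1, where 7.16% of all genes were higher, and 0 without CREX replicate 2, where 172 genes were higher. Median deviations from the EX mean were 0.02, 0.55 and 0.90 in the CREX mice and -0.15 to 0.14 in the EX mice, so that CREX replicate 1 lay within the EX range. Rpl12, of the large subunit, stood at 177, 281 and 362 CPM in the CREX mice and 117, 108, 134 and 142 CPM in the EX mice (log2 fold change 1.12 ± 0.21 (SE), adjusted p = 0.0134). Rpl12 lost its call without CREX replicate 2 (log2 fold change 0.87). With library totals in place of TMM the list's median was 0.66 and its count 59. Mitochondrial ribosomal proteins differed little, with 2 of 77 lower, 0 higher and a median of -0.16, which was 0.00 under library totals.

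Of the 13 mRNAs of the mitochondrial genome 12 fell, 0 rose and the median was -0.86, with ATP8 the one that did not pass the test (-0.60 ± 0.29 SE, adjusted p = 0.193). In 12 of the 13 every CREX mouse was below every EX mouse, beside 14.6% of all genes tested. CREX replicate 1 had a median deviation of -0.52 against -1.10 and -1.11 in replicates 2 and 3. Summed over the list they made up 256849, 177584 and 184394 CPM in the CREX mice and 371060.3, 369726, 369934 and 365346 CPM in the EX mice. ND3, a subunit of complex I, stood at 1566, 1451 and 1743 CPM in the CREX mice and 3713, 3796, 4206 and 4044 CPM in the EX mice (log2 fold change -1.32 ± 0.12 (SE), adjusted p = 0.00112). ND3 was called in every fit. COX1, the catalytic subunit of cytochrome oxidase, was at 73743, 45555 and 50685 CPM in the CREX mice and 102454, 98763, 97855 and 97340.4 CPM in the EX mice (log2 fold change -0.81 ± 0.18 (SE), adjusted p = 0.0232), and was called only without CREX replicate 1 among the 7 fits with 1 mouse left out (-1.07 to -0.67). COX3 (-0.88 ± 0.15 SE, adjusted p = 0.0101) and COX2 (-0.86 ± 0.15 SE, adjusted p = 0.0101) were called in all 7. ND4, ATP6 and ND1, among the 5 lower DEGs with the most counts, had log2 fold changes of -0.85 ± 0.18, -0.74 ± 0.14 and -0.75 ± 0.14 (SE), and ran over -1.10 to -0.71, -0.88 to -0.66 and -0.90 to -0.67 in the 7 fits. ND1 lost its call without CREX replicate 2, ATP6 without CREX replicate 2 or EX replicate 3, and ND4 without CREX replicate 2 or 3 or EX replicate 1, 2 or 3. Without CREX replicate 2 the count was 3 of 13. The list was also lower in sedentary mice on CR, with 12 lower and a median of -0.91.

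Nuclear genes of oxidative phosphorylation had smaller fold changes. In complex I, 7 of 36 nuclear subunits were lower and 0 higher (median -0.42), in complexes II to IV 9 of 30 and 0 (median -0.49), and in ATP synthase 4 of 17 and 0 (median -0.41). Without CREX replicate 1 the lower DEGs numbered 15, 15 and 4, and without CREX replicate 2 they numbered 1, 3 and 2. Over all genes 12.1% were lower without CREX replicate 1 and 171 genes without CREX replicate 2. CREX replicate 1 by itself was below all EX mice in 34 of the 36, 26 of the 30 and 14 of the 17 genes, beside 4080 of 13112 genes tested. Cox7a1, the muscle isoform of a cytochrome oxidase subunit, stood at 99.3, 56.7 and 63.8 CPM in the CREX mice and 167, 148, 171 and 177 CPM in the EX mice (log2 fold change -1.18 ± 0.20 (SE), adjusted p = 0.00964). Cox4i1, another subunit, was at 364, 272 and 321 CPM in the CREX mice and 522, 513, 518 and 539.9 CPM in the EX mice (log2 fold change -0.72 ± 0.13 (SE), adjusted p = 0.011), Ndufab1, the mitochondrial acyl carrier protein, at 112, 77.6 and 95.2 against 162, 149, 149 and 177 CPM (log2 fold change -0.75 ± 0.14 (SE), adjusted p = 0.0135). Atp5k was at 26.5, 23.1 and 25.8 against 41.2, 34.5, 40.8 and 41.7 CPM (log2 fold change -0.66 ± 0.11 (SE), adjusted p = 0.00863). These 4 were called in each fit with 1 mouse left out. Cox6a2, the heart and muscle isoform of its subunit, did not pass the test (1391, 1187 and 1568 against 1381, 1213, 1367 and 1277 CPM). Under library totals the counts were 1, 3 and 1, and Cox4i1 and Atp5k were no longer called.

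Enzymes of fatty acid oxidation fell in 11 of 23 cases and rose in 0, with a median of -0.70. The count was 19 without CREX replicate 1 and 0 without CREX replicate 2, and 4 with library totals. Lower DEGs over all genes made up 12.1% without CREX replicate 1 and numbered 171 without CREX replicate 2. Median deviations were -0.25, -1.03 and -0.98 in the CREX mice and -0.07 to 0.07 in the EX mice. Hadhb, a subunit of the mitochondrial trifunctional protein, stood at 233, 137 and 150.0 CPM in the CREX mice and 343, 347, 324 and 330.5 CPM in the EX mice (log2 fold change -0.96 ± 0.19 (SE), adjusted p = 0.0142). Hadhb lost its call without CREX replicate 2 (log2 fold change -0.81). Cpt2, which frees acyl groups from carnitine in the matrix, was at 58.7, 36.4 and 37.3 against 82.6, 80.5, 68.9 and 75.2 CPM (log2 fold change -0.80 ± 0.18 (SE), adjusted p = 0.0237). Acads, the short-chain dehydrogenase, was at 44.3, 25.8 and 26.8 against 59.4, 65.2, 54.6 and 59.5 CPM (log2 fold change -0.89 ± 0.20 (SE), adjusted p = 0.0224). Both were called only without CREX replicate 1 among the fits with 1 mouse left out (-1.08 to -0.67 and -1.21 to -0.74). CREX replicates 2 and 3, the mice low in Myh2, were the lowest 2 for all 3 enzymes, and CREX replicate 1 lay between them and the EX mice. Of 21 citrate cycle enzymes 2 were lower, Mdh1 (-0.96 ± 0.27 SE, adjusted p = 0.0471) and Dlat (-0.68 ± 0.20 SE, adjusted p = 0.0484), 0 were higher and the median was -0.43. These 2 calls were lost in each fit with 1 mouse left out except that without CREX replicate 1 (-1.42 to -0.74 and -0.99 to -0.55).

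Among 19 tested PPAR targets 1 rose and 3 fell, with a median of -0.49 (0 to 10 lower with 1 mouse left out). The 10 were without CREX replicate 1, where 12.1% of all genes were lower. Ucp3, a mitochondrial carrier induced by fasting, stood at 300.4, 326 and 382 CPM in the CREX mice and 166, 143, 124 and 153 CPM in the EX mice (log2 fold change 1.19 ± 0.13 (SE), adjusted p = 0.00187). Ucp3 was called in every fit. Fabp3, the fatty acid binding protein of oxidative muscle, was at 209, 61.4 and 89.3 CPM in the CREX mice and 384, 384, 449.6 and 389.6 CPM in the EX mice (log2 fold change -1.74 ± 0.41 (SE), adjusted p = 0.0353). Acsl1, which activates long-chain fatty acids, was at 236, 127 and 118 against 325, 337, 262 and 276 CPM (log2 fold change -0.91 ± 0.25 (SE), adjusted p = 0.0482). Fabp3 and Acsl1 were called in 1 of the 7 fits with 1 mouse left out, that without CREX replicate 1 (-2.44 to -1.42 and -1.32 to -0.72). Pdk4, the kinase that closes pyruvate dehydrogenase, was at 1308, 1116 and 381 CPM in the CREX mice and 815, 419.8, 305 and 399.7 CPM in the EX mice and did not pass the test (adjusted p = 0.238), with CREX replicate 3 inside the EX range. Lpl, lipoprotein lipase, was at 472, 97.8 and 99.5 CPM in the CREX mice and 648, 698, 630.0 and 526 CPM in the EX mice (adjusted p = 0.159), low in CREX replicates 2 and 3 and near the EX mice in replicate 1.

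Glycogen and glycolysis genes were called in 1 member each, near the 3.7% higher and 5.17% lower of all genes tested. Ppp1r3c, a scaffold that brings protein phosphatase 1 to glycogen and favours its storage, stood at 523, 865 and 839.5 CPM in the CREX mice and 151, 93.6, 67.4 and 97.3 CPM in the EX mice (log2 fold change 2.85 ± 0.28 (SE), adjusted p = 0.00212), the only DEG of 20 glycogen genes. Every CREX mouse was more than 3-fold above every EX mouse. Pygm, muscle glycogen phosphorylase, was at 8569.6, 13545 and 11064 against 6924, 7113, 7548 and 8739 CPM and missed the threshold (adjusted p = 0.054), as did Gpi1, glucose phosphate isomerase, at 1184, 1585 and 1585 against 975, 946, 990.0 and 1243 CPM (adjusted p = 0.0547). Of 22 glycolysis genes, 1 rose (Pfkfb4, 0.99 ± 0.23 SE, adjusted p = 0.0302) and 0 fell, with a median of 0.06. Pfkfb4, which sets the level of an activator of glycolysis, was called only without CREX replicate 1 among the fits with 1 mouse left out (0.76 to 1.26).

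In fatty acid and triglyceride synthesis 1 of 24 genes rose and 2 fell, near the 3.7 and 5.17% of all genes tested. Pnpla3, a lipid droplet enzyme, stood at 22.9, 23.1 and 4.16 CPM in the CREX mice and 4.04, 2.06, 3.06 and 2.77 CPM in the EX mice (log2 fold change 2.48 ± 0.60 (SE), adjusted p = 0.0418). It lost its call in all fits with 1 mouse left out but that without CREX replicate 3, the lowest CREX mouse (2.16 to 2.94). Gpam, the first enzyme of glycerolipid synthesis, was at 103, 70.3 and 73.98 CPM in the CREX mice and 168, 156, 140.0 and 140.4 CPM in the EX mice (log2 fold change -0.88 ± 0.16 (SE), adjusted p = 0.0115). Gpam lost its call only without CREX replicate 2 (-0.77). The carbohydrate-sensing factor Mlxipl fell by 0.70 on the log2 scale (adjusted p = 0.0364) and was called in 1 of the 7 fits, without CREX replicate 1 (-0.98 to -0.52). CREX replicate 1 was above all EX mice in 16 of the 24 genes, beside 3248 of 13112 genes tested, and both CREX replicate 1 and EX replicate 1 were high in adipocyte markers. Summed over 6 markers these were at 132, 9.11 and 26.6 CPM in the CREX mice and 118, 3.59, 4.05 and 2.96 CPM in the EX mice, and their part was not tested. In sterol synthesis and uptake 1 of 23 genes rose (Hsd17b7, 1.51 ± 0.39 SE, adjusted p = 0.0441) and 0 fell, with a median of -0.07, and that call was lost in all fits with 1 mouse left out but that without CREX replicate 1 (1.21 to 1.88).

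Of 31 amino acid metabolism genes 2 rose, Glul and Gpt2, and 0 fell, beside 3.7 and 5.17% of all genes tested. Gpt2, the mitochondrial alanine aminotransferase, stood at 282, 439.9 and 509 CPM in the CREX mice and 116, 120.4, 125 and 138 CPM in the EX mice (log2 fold change 1.71 ± 0.17 (SE), adjusted p = 0.00153). Gpt2 was called in every fit. Both enzymes form the amino acids that muscle releases most, glutamine and alanine. Got2, the mitochondrial aspartate aminotransferase, was at 720.0, 368 and 429.8 against 774, 714, 611 and 679 CPM and did not pass the test (adjusted p = 0.196), nor did Amd1, of polyamine synthesis, at 477, 1092 and 905 against 791, 937, 743 and 1220.4 CPM (adjusted p = 0.686).

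**Figure D4:**
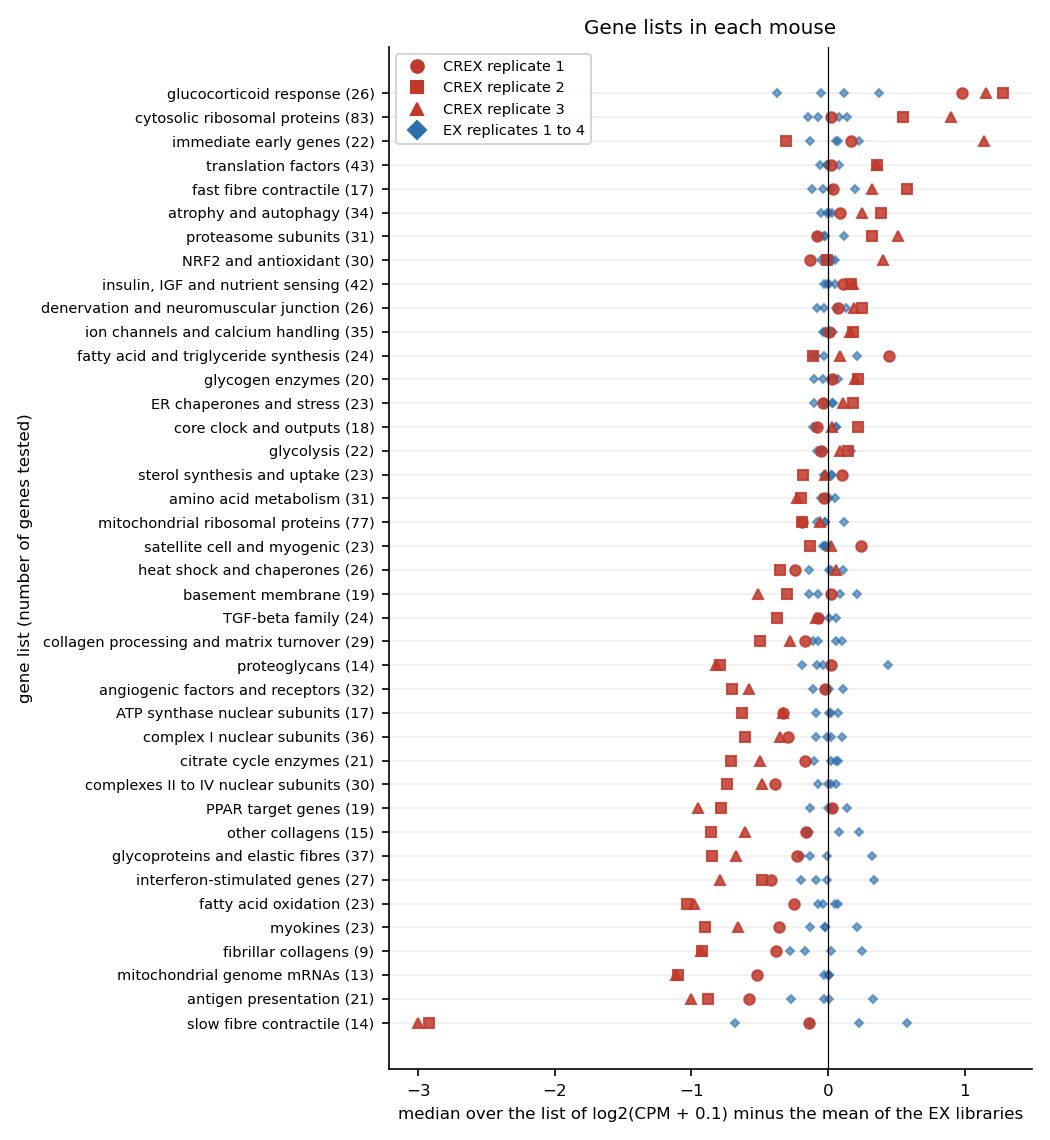
Median over each gene list of the log2 difference from the mean of the EX libraries (x axis), 1 symbol per mouse, lists ordered by the median log2 fold change with the number of genes tested in brackets. All 3 CREX mice (red) lie outside the EX mice (blue) for the glucocorticoid response and the mitochondrial genome, among other lists such as complex I and antigen presentation. For slow fibre, ribosomal, angiogenic and PPAR target genes CREX replicate 1 (circle) lies among or near the EX mice.

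Fast fibre genes rose in 2 cases of 17 and 0 fell, beside 3.7 and 5.17% of all genes tested, with a median of 0.27. Actn3, the Z-disc actinin of fast fibres, stood at 9149, 16943 and 16393 CPM in the CREX mice and 4474, 4454, 5494 and 5395 CPM in the EX mice (log2 fold change 1.5 ± 0.20 (SE), adjusted p = 0.00505). Actn3 was called in every fit, as was Mybph. Atp2a1, the calcium pump of fast fibres, was at 31779, 40408 and 34791 CPM in the CREX mice and 23170.4, 23609, 25033 and 24864 CPM in the EX mice and passed on adjusted p (0.0227) but not on fold change (0.55 ± 0.12 SE on the log2 scale). In this list 7 rose and 2 fell without CREX replicate 1. Among the DEGs with the most counts were also Ampd1, the AMP deaminase of muscle, the tubulin Tuba4a, Ybx3, a cold shock domain protein, and Pde4dip, an anchor of the Z disc. They rose by 0.71 ± 0.18, 0.69 ± 0.15, 1.02 ± 0.20 and 0.78 ± 0.14 (SE), with adjusted p = 0.0319, 0.0196, 0.0149 and 0.0119. Over the 7 fits they ran over 0.55 to 0.87, 0.53 to 0.84, 0.84 to 1.24 and 0.70 to 0.87. Ampd1 and Tuba4a lost their calls without CREX replicate 2 or 3 or EX replicate 1, 2 or 3, Ybx3 without CREX replicate 2 or EX replicate 2, and Pde4dip without CREX replicate 2.

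Among the genes of the neuromuscular junction and of denervation, 7 of 26 rose and 1 fell (3 to 9 and 1 to 6 with 1 mouse left out). The acetylcholine receptor subunits Chrnb1 and Chrna1 stood at 36.1, 63.3 and 76.7 CPM in the CREX mice and 19.2, 18.4, 17.96 and 23.3 CPM in the EX mice (log2 fold change 1.56 ± 0.22 (SE), adjusted p = 0.00713) and 15.7, 25.2 and 23.9 against 10.8, 12.7, 10.9 and 9.101 CPM (log2 fold change 0.98 ± 0.17 (SE), adjusted p = 0.0102). Ache, the esterase that ends transmission, was at 43.5, 49.05 and 62.3 CPM in the CREX mice and 26.8, 31.6, 31.6 and 30.5 CPM in the EX mice (log2 fold change 0.77 ± 0.13 (SE), adjusted p = 0.00889). In all 3 the CREX mice were above the EX mice. Musk, the kinase that clusters the receptors, was at 30.02, 48.01 and 78.8 against 15.5, 18.4, 14.4 and 22.9 CPM (log2 fold change 1.54 ± 0.31 (SE), adjusted p = 0.0212). Musk was no longer called without CREX replicate 2 or EX replicate 1, 2 or 3 (1.13 to 1.81). Hdac9, a class II deacetylase that represses activity-dependent genes, was at 2.08, 0.911 and 2.06 CPM in the CREX mice and 6.15, 5.97, 6.17 and 3.8 CPM in the EX mice (log2 fold change -1.72 ± 0.31 (SE), adjusted p = 0.0115), below every EX mouse in each CREX mouse.

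Of 35 ion channel and calcium handling genes 6 rose and 4 fell (1 to 7 and 0 to 5 with 1 mouse left out, the fewest without CREX replicate 2). Beside Scn3b, the potassium channel Kcnj12 rose by 0.61 ± 0.11 (SE) on the log2 scale, with a call lost without CREX replicate 2 or EX replicate 3 (0.53 to 0.68). Kcnma1, the calcium-activated potassium channel, fell by 0.64 on the log2 scale (adjusted p = 0.0115), with a call lost without CREX replicate 2 or 3 (-0.77 to -0.56). Ryr1, the calcium release channel, did not pass the test (3152, 3462 and 2781 against 2346, 2696, 2412 and 2287 CPM).

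Of 23 satellite cell and myogenic genes 5 rose and 1 fell (1 to 5 and 0 to 4 with 1 mouse left out). Cdkn1a, the cell cycle inhibitor p21, stood at 21.2, 23.3 and 27.2 CPM in the CREX mice and 12.3, 6.78, 8.46 and 5.25 CPM in the EX mice (log2 fold change 1.53 ± 0.25 (SE), adjusted p = 0.0115). Cdkn1a was called in every fit. Cdh15, the cadherin of satellite cells and junctional myonuclei, was at 18.1, 28.9 and 28.1 CPM in the CREX mice and 13.9, 15.1, 13.6 and 15.2 CPM in the EX mice (log2 fold change 0.78 ± 0.15 (SE), adjusted p = 0.013). Myf6, a myogenic factor of mature fibres, was at 75.3, 117 and 163 against 56.98, 57.1, 50.8 and 58.9 CPM (log2 fold change 1.07 ± 0.21 (SE), adjusted p = 0.0163). Both had all CREX mice above all EX mice, and Cdh15 lost its call without CREX replicate 2 (0.67) and Myf6 without CREX replicate 2 or EX replicate 2 or 3 (0.77 to 1.30). Vcam1, an adhesion molecule of satellite cells and endothelium, was at 1.02, 0.8285 and 1.13 against 2.25, 1.84, 2.66 and 1.78 CPM (log2 fold change -1.11 ± 0.25 (SE), adjusted p = 0.0224). It lost its call without CREX replicate 2 or EX replicate 1, 2 or 3 (-1.20 to -0.98). Summed over 4 satellite cell markers the level was 21.99, 32.2 and 31.6 CPM in the CREX mice and 17.7, 18.4, 17.4 and 19.9 CPM in the EX mice, above the EX mice in all 3 CREX mice. Cdh15 was the only DEG among these 4 markers and made up most of the sum in each mouse. The higher sum thus largely reflects that 1 gene.

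Among 9 tested fibrillar collagen genes 4 were lower and 1 was higher, with a median of -0.78 (2 to 6 lower with 1 mouse left out, 6 without CREX replicate 1). Col3a1, of the fine collagen network, stood at 16.7, 8.95 and 10.8 CPM in the CREX mice and 70.5, 62.5, 43.1 and 46.4 CPM in the EX mice (log2 fold change -2.20 ± 0.27 (SE), adjusted p = 0.00592). Col1a1 was at 10.7, 7.17 and 5.46 CPM in the CREX mice and 53.4, 35.99, 29.8 and 29.7 CPM in the EX mice (log2 fold change -2.27 ± 0.31 (SE), adjusted p = 0.00812). Its partner Col1a2 was at 23.9, 17.1 and 12.9 against 68.4, 53.8, 41.1 and 42.4 CPM (log2 fold change -1.52 ± 0.26 (SE), adjusted p = 0.0126). The 2 groups were far apart for these genes, and CREX replicate 1 had the highest CREX level in each. Col1a2 lost its call without CREX replicate 2 (-1.33). Col11a2, a minor fibrillar collagen, went up, at 7.02, 5.63 and 5.94 CPM in the CREX mice and 2.38, 2.69, 3.29 and 2.35 CPM in the EX mice (log2 fold change 1.20 ± 0.18 (SE), adjusted p = 0.00693). In the other collagens 4 of 15 were lower and 0 higher. Col15a1, which anchors basement membranes to the interstitium, was at 6.2, 5.96 and 5.46 CPM in the CREX mice and 24.8, 20.7, 16.1 and 22.2 CPM in the EX mice (log2 fold change -1.84 ± 0.15 (SE), adjusted p = 0.000599). Col6a2, of the beaded filaments around fibres, was at 17.6, 12.2 and 12.6 against 40.5, 35.3, 27.9 and 31.4 CPM (log2 fold change -1.26 ± 0.18 (SE), adjusted p = 0.00624). Col3a1, Col1a1, Col11a2, Col15a1 and Col6a2 were called in every fit. Col22a1, of the junction between muscle and tendon, fell by 1.15 on the log2 scale (adjusted p = 0.0336) with a call that held only without CREX replicate 1 or EX replicate 2 (-1.41 to -0.88).

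In basement membrane genes 2 of 19 were lower and 0 higher, Col4a1 at 52.9, 34.5 and 45.3 CPM in the CREX mice and 97.7, 82.5, 79.9 and 76.6 CPM in the EX mice (log2 fold change -0.93 ± 0.16 (SE), adjusted p = 0.0103). Its partner Col4a2 was at 45.4, 26.4 and 34.4 against 77.5, 61.3, 65.95 and 63.8 CPM (log2 fold change -0.93 ± 0.18 (SE), adjusted p = 0.0162). Col4a2 lost its call without CREX replicate 3 (-0.75). Laminin Lamb2 did not pass the test (102, 70.2 and 67.7 against 103, 97.8, 65.7 and 85.1 CPM), nor did Col5a3, a minor fibrillar chain, at 13.5, 15.3 and 12.2 against 15.6, 12.97, 10.6 and 13.4 CPM (adjusted p = 0.856). Among 37 glycoproteins and elastic fibre genes 8 were lower and 0 higher, with a median of -0.60. The lower ones numbered 18 without CREX replicate 1, where 12.1% of all genes were lower, and 1 without CREX replicate 2 or EX replicate 1. Sparc, a collagen-binding protein needed for fibril assembly, stood at 66.1, 62.96 and 62.95 CPM in the CREX mice and 150.3, 113, 118 and 98.3 CPM in the EX mice (log2 fold change -0.91 ± 0.15 (SE), adjusted p = 0.00863). Sparc was called in every fit. Of 29 collagen processing and turnover genes 3 were lower and 0 higher, among them Mmp2, a gelatinase, at 13.9, 14.4 and 11.9 CPM in the CREX mice and 31.1, 23.8, 21.02 and 20.8 CPM in the EX mice (log2 fold change -0.86 ± 0.16 (SE), adjusted p = 0.0118), called in every fit. Timp3, an inhibitor of metalloproteinases, was at 166, 123 and 142 against 106, 108, 121 and 77.9 CPM (adjusted p = 0.0851).

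Proteoglycans fell in 4 of 14 genes and rose in 1. Fmod, the fibril-shaping fibromodulin, stood at 5.22, 2.53 and 3.31 CPM in the CREX mice and 26.9, 11.7, 24.4 and 16.5 CPM in the EX mice (log2 fold change -2.43 ± 0.38 (SE), adjusted p = 0.0115). Its call was lost without CREX replicate 3 (-2.22). Spock2, a testican, was at 23.4, 11.6 and 13.4 CPM in the CREX mice and 6.11, 4.13, 4.28 and 3.66 CPM in the EX mice (log2 fold change 1.83 ± 0.28 (SE), adjusted p = 0.00889). Spock2 was called in every fit. Dcn, the main small proteoglycan of muscle, was at 216, 213 and 223 against 260.4, 228, 173 and 194 CPM, with a difference of 0.01 ± 0.14 (SE) on the log2 scale (adjusted p = 0.967). Several of these genes are also markers of tendon, a tissue that joins the muscle at its ends. Summed over 8 tendon markers, Kera, Fmod, Chad and Thbs4 among them, the level was 36.5, 21.8 and 30.97 CPM in the CREX mice and 88.8, 54.4, 70.3 and 80.5 CPM in the EX mice, with 6 of the 7 tested markers lower and 1 higher, and every CREX mouse was below every EX mouse. The one higher was Scx, a transcription factor of tendon cells, at 2.85, 5.55 and 7.52 against 2.47, 2.06, 2.57 and 3.002 CPM (log2 fold change 1.06 ± 0.29 (SE), adjusted p = 0.0404), called only without CREX replicate 1 among the 7 fits (0.73 to 1.35). Thbs4 made up most of the sum in each mouse. It stood at 27.2, 13.2 and 19.4 against 49.1, 37.4, 36.8 and 54.8 CPM (log2 fold change -1.16 ± 0.26 (SE), adjusted p = 0.0256). Its call was lost without CREX replicate 2 or 3 or EX replicate 1, 2 or 4 (-1.47 to -0.93). For CR against control in sedentary mice Kera was not tested, and Fmod and Chad had log2 fold changes of 0.36 and 0.82 (adjusted p = 0.679 and 0.437). Thbs4 was a lower DEG there (log2 fold change -0.81, adjusted p = 0.00596). The sum of the 8 tendon markers ran from 30.8 to 50.1 CPM in CR and from 44.6 to 53.8 CPM in control mice. Col3a1 and Col1a1 fell in sedentary mice by 2.63 and 2.33 on the log2 scale. The part of tendon tissue in the lower proteoglycan levels was not tested.

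Of 32 angiogenic factors and receptors 5 fell and 1 rose (2 to 16 lower with 1 mouse left out), beside 5.17 and 3.7% of all genes tested. The 16 were without CREX replicate 1, where 12.1% of all genes were lower. The list had a median of -0.39. Angpt1, the pericyte ligand that steadies vessels, stood at 2.57, 0.911 and 1.86 CPM in the CREX mice and 7.36, 6.104, 5.58 and 7.55 CPM in the EX mice (log2 fold change -1.90 ± 0.30 (SE), adjusted p = 0.00876). Angpt1 was called in every fit. Vegfb was at 124, 66.4 and 70.7 CPM in the CREX mice and 160.0, 159, 168 and 163 CPM in the EX mice (log2 fold change -0.90 ± 0.21 (SE), adjusted p = 0.0276). Vegfb was called in 1 of the 7 fits, without CREX replicate 1 (-1.27 to -0.73). Kdr, the main VEGF receptor, was at 32.8, 11.8 and 8.77 CPM in the CREX mice and 43.3, 43.2, 50.5 and 46.1 CPM in the EX mice and Vegfa, its ligand, at 173, 84.5 and 161 against 195, 219, 234 and 208 CPM, and neither passed the test (adjusted p = 0.0951 and 0.101). Icam2, an adhesion molecule of endothelium, was at 3.43, 2.44 and 2.71 CPM in the CREX mice and 6.06, 5.75, 6.57 and 5.07 CPM in the EX mice (log2 fold change -1.04 ± 0.18 (SE), adjusted p = 0.0103). Icam2 was called in every fit. Summed over 6 endothelial markers the level was 213, 122 and 109.8 CPM in the CREX mice and 249, 239, 297 and 243 CPM in the EX mice, below every EX mouse in each CREX mouse, with 2 of the 6 markers lower and 0 higher. The median deviation of the angiogenic list was -0.02, -0.70 and -0.58 in the CREX mice and -0.11 to 0.11 in the EX mice, so that CREX replicate 1 was within the EX range. The part of a lower number of endothelial cells was not tested.

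Genes for secreted myokines fell in 8 of 23 cases and rose in 0, with a median of -0.72. The lower ones numbered 13 without CREX replicate 1, where 12.1% of all genes were lower, and 1 without CREX replicate 2. These were the extremes over the fits with 1 mouse left out. Il15, a cytokine of muscle that acts on lymphocytes and fat, stood at 4.04, 1.33 and 1.54 CPM in the CREX mice and 8.08, 9.69, 8.64 and 7.83 CPM in the EX mice (log2 fold change -1.89 ± 0.36 (SE), adjusted p = 0.0162). Il15 was no longer called without CREX replicate 2 or 3 or EX replicate 2 (-2.60 to -1.61). Cx3cl1, the membrane-bound chemokine fractalkine, was at 0.897, 0.497 and 1.01 CPM in the CREX mice and 3.77, 1.98, 2.07 and 3.28 CPM in the EX mice (log2 fold change -1.79 ± 0.34 (SE), adjusted p = 0.0134). Its call was lost without CREX replicate 2 (-1.53). Ostn, or musclin, fell by 0.74 on the log2 scale (adjusted p = 0.0263) and was called without CREX replicate 1 or EX replicate 1 or 2 but in no other such fit (-0.83 to -0.64). Fndc5, the precursor of irisin, was at 89.2, 24.98 and 23.7 CPM in the CREX mice and 166, 143, 134 and 148 CPM in the EX mice and did not pass the test (adjusted p = 0.0761), with CREX replicates 2 and 3 at the lowest levels. Mstn, or myostatin, the inhibitor of muscle growth, was at 34.8, 90.6 and 70.1 against 35.5, 31.3, 27.8 and 48.5 CPM (adjusted p = 0.106). Nampt, of NAD synthesis, and Apoe, the apolipoprotein, did not pass the test either (83.3, 87.6 and 86.6 against 107, 107, 97.3 and 119.7 CPM and 67.2, 39.5 and 59.99 against 54.5, 37.5, 38.98 and 30.1 CPM). In the TGF-beta family 2 of 24 genes rose and 1 fell, beside 3.7 and 5.17% of all genes tested. Acvr1b, a type I activin receptor, stood at 36.96, 43.95 and 36.5 CPM in the CREX mice and 20.8, 25, 22.9 and 17.5 CPM in the EX mice (log2 fold change 0.85 ± 0.13 (SE), adjusted p = 0.008), called in every fit.

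Of 21 antigen presentation genes 8 fell and 0 rose, with a median of -1.18 (3 to 13 lower with 1 mouse left out). Median deviations were -0.58, -0.88 and -1.0 in the CREX mice and -0.27 to 0.33 in the EX mice. The MHC class II chains H2-Eb1 and H2-Aa stood at 1.92, 1.16 and 2.02 CPM in the CREX mice and 5.48, 4.71, 4.91 and 4.597 CPM in the EX mice (log2 fold change -1.54 ± 0.22 (SE), adjusted p = 0.00592) and 3.59, 2.03 and 3.72 against 9.43, 9.65, 7.43 and 6.896 CPM (log2 fold change -1.43 ± 0.23 (SE), adjusted p = 0.00877), and both were called in every fit. Cd74, the invariant chain that guides class II molecules, was at 10.3, 3.81 and 8.49 against 24.6, 26.7, 18.6 and 16.9 CPM (log2 fold change -1.53 ± 0.34 (SE), adjusted p = 0.0293). Cd74 was no longer called without CREX replicate 3 or EX replicate 1, 2 or 3 (-1.84 to -1.21). B2m, the light chain of class I, was at 80.4, 69.5 and 72.5 against 117, 101, 138 and 90.96 CPM (log2 fold change -0.60 ± 0.15 (SE), adjusted p = 0.0332). Its call was lost without CREX replicate 2 or 3 or EX replicate 1, 2 or 3 (-0.69 to -0.48). Genes of the MHC family share sequence, and estimated counts may be split among them. Summed macrophage markers overlapped between groups, at 24.96, 13.3 and 34.2 CPM in the CREX mice and 26.6, 26.8, 14.99 and 15.1 CPM in the EX mice, and of 6 lymphocyte markers Cd3e and Cd8a were at 0 counts in all 7 mice.

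Interferon-stimulated genes fell in 7 of 27 cases and rose in 0, with a median of -0.61 (0 to 13 lower with 1 mouse left out). The 13 were without CREX replicate 1, where 12.1% of all genes were lower. The count was 0 without CREX replicate 2 or 3 or EX replicate 3 or 4. Rtp4, a chaperone of receptors induced by interferon, stood at 1.18, 1.49 and 1.09 CPM in the CREX mice and 2.2, 2.06, 3.78 and 3.24 CPM in the EX mice (log2 fold change -1.17 ± 0.27 (SE), adjusted p = 0.0244). Ifit3, an antiviral protein that binds RNA, was at 1.35, 1.16 and 1.05 against 1.796, 2.33, 2.84 and 2.81 CPM (log2 fold change -1.05 ± 0.24 (SE), adjusted p = 0.0236), and both lost their calls in those 4 fits, Ifit3 also without EX replicate 2 (-1.30 to -1.0 and -1.17 to -0.96). Every CREX mouse was below every EX mouse in 12 of the 27 genes, beside 14.6% of all genes tested.

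Of 18 genes of the clock and its outputs 2 rose and 3 fell, beside 3.7 and 5.17% of all genes tested. Nr1d1, the nuclear receptor that represses Bmal1, stood at 27.5, 35.7 and 35.6 CPM in the CREX mice and 146, 104, 129 and 185 CPM in the EX mice (log2 fold change -2.10 ± 0.19 (SE), adjusted p = 0.00112). Dbp, an output factor bound by the clock, was at 23.3, 25.1 and 35.01 CPM in the CREX mice and 70.5, 94.1, 125 and 104 CPM in the EX mice (log2 fold change -1.83 ± 0.21 (SE), adjusted p = 0.00335). Nfil3, which acts against Dbp at the same sites, was at 44.1, 49.4 and 101 CPM in the CREX mice and 12.8, 11.5, 10.3 and 9.34 CPM in the EX mice (log2 fold change 2.55 ± 0.29 (SE), adjusted p = 0.00522). All 3 were called in every fit with 1 mouse left out. The hour of day at which each mouse was killed is not stated, and its part was not tested. Per2, a negative arm of the clock, was at 31, 27.5 and 36.6 against 19.2, 27.3, 27.6 and 15.2 CPM and did not pass the test (adjusted p = 0.147).

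Of 22 immediate early genes 0 were DEGs by edgeR, with 0 at an adjusted p under 0.05 alone and 2 DEGs by DESeq2. Egr1, a zinc finger factor, stood at 3.18, 2.36 and 128 CPM in the CREX mice and 3.46, 1.66, 3.92 and 5.49 CPM in the EX mice, and the orphan nuclear receptors Nr4a3 at 2.203, 2.86 and 269 against 2.29, 2.15, 0.765 and 1.55 CPM and Nr4a1 at 119.7, 100 and 770.1 against 142, 151, 159.5 and 169 CPM. CREX replicate 3 alone was far above the other 6 mice for these 3 genes, as it was for Mt1 and Mt2. Handling of single animals before sampling is not described, and its part was not tested.

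Heat shock and chaperone genes, 26 in all, gave 0 DEGs by edgeR, with 0 at an adjusted p below 0.05 alone and 2 DEGs by DESeq2, with a median of -0.19. Of 23 endoplasmic reticulum genes 1 fell, Ddit3, a factor of the stress response, at 7.55, 5.51 and 7.6 CPM in the CREX mice and 9.79, 11.5, 15.4 and 14.8 CPM in the EX mice (log2 fold change -0.91 ± 0.19 (SE), adjusted p = 0.0174). Ddit3 was no longer called without CREX replicate 2 or EX replicate 3 (-1.02 to -0.76). In the NRF2 and antioxidant list 2 of 30 rose and 3 fell, beside 3.7 and 5.17% of all genes tested. Gstm2, a glutathione transferase, was at 64.4, 79.1 and 108 CPM in the CREX mice and 43.4, 29.98, 49.9 and 29.8 CPM in the EX mice (log2 fold change 1.12 ± 0.23 (SE), adjusted p = 0.0201). Its call was lost without CREX replicate 2 or 3 or EX replicate 2 (0.90 to 1.27). Prdx6, a peroxiredoxin, was at 63.9, 49.2 and 56.4 against 90.8, 84.5, 81.1 and 88.01 CPM (log2 fold change -0.61 ± 0.12 (SE), adjusted p = 0.0135). Prdx6 was no longer called without CREX replicate 2 or EX replicate 1 (-0.73 to -0.51).

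Hepatocyte mRNAs were present in 1 CREX mouse. Over 7 markers of liver cells such as Alb the sums were 48.6, 0.538 and 0.889 CPM in the CREX mice and 2.38, 0.224, 0.7202 and 1.36 CPM in the EX mice, and in the sedentary CR mice they ran from 41.2 to 229 CPM. CREX replicate 1 was thus the one trained mouse with a level above 3 CPM. Of the 7 markers 2 passed the filter on low counts and 0 were DEGs. No gene named as changed above belongs to that list.

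The restriction response of trained muscle was then set beside that of sedentary muscle, which rests on other mice. CR against control gave 1264 DEGs of 13173 genes (9.6%), of which 563 were higher (4.27%) and 701 lower (5.32%). Of the higher DEGs 241 were shared, which is 49.7% of the trained and 42.8% of the sedentary ones, and of the lower DEGs 345, which is 50.9 and 49.2%. None of the 586 genes called in both went in opposite directions. Over 12927 genes tested in both, the log2 fold changes had a Pearson r of 0.741 and a Spearman rank correlation of 0.723, a description across genes that are not independent. Among 1142 DEGs of trained mice that were tested in both, 1123 had the same sign in sedentary mice. The glucocorticoid response had 14 higher DEGs in trained and 15 in sedentary muscle, fibrillar collagens 4 and 7 lower, and mitochondrial genome mRNAs 12 and 12 lower. Other lists differed more in their counts. Complex I had 7 lower DEGs in trained and 0 in sedentary muscle (medians -0.42 and -0.16), complexes II to IV 9 and 1, and ATP synthase 4 and 0. Cytosolic ribosomal proteins had 13 and 3 higher DEGs (medians 0.50 and 0.43). The slow fibre list had medians of -1.5 and 0.08.

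**Figure D5:**
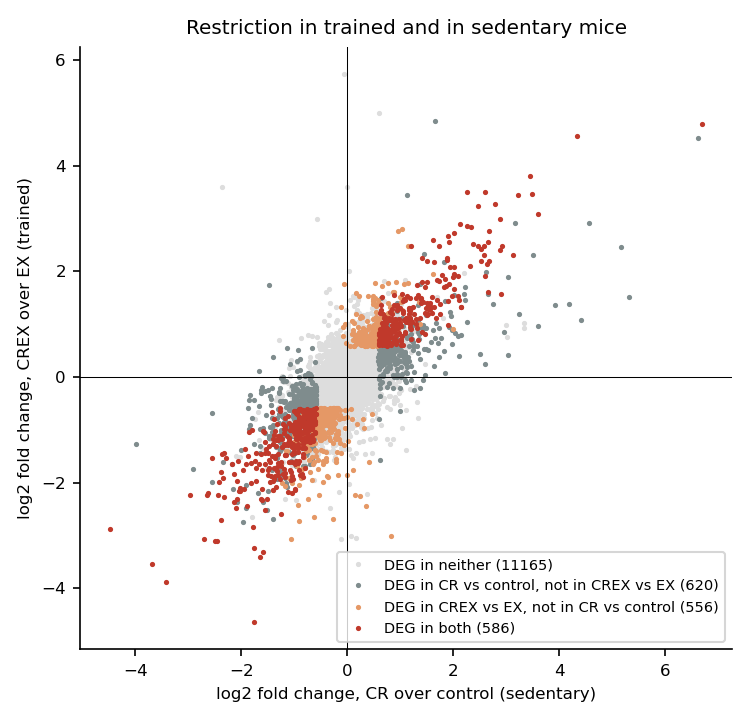
Log2 fold change of CR over control in sedentary mice (x axis) against CREX over EX in trained mice (y axis) for genes tested in both, coloured by where the gene was a DEG. The 586 genes called in both lie in the lower left and upper right quadrants.

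Whether restriction acted differently in trained and in sedentary muscle was tested as the interaction over all 14 libraries. Of 13610 genes 0 (0%) were called by edgeR, with a smallest adjusted p of 0.922 and 669 genes (4.92%) at an unadjusted p under 0.05. DESeq2 called 1. Without CREX replicate 1 there were 180 (37 with a more positive and 143 with a more negative effect in trained mice), and 5 of the 14 slow fibre genes were among the latter. Gnmt, a methyltransferase that uses S-adenosylmethionine, had the smallest p (interaction -2.35 ± 0.44 SE, unadjusted p = 6.79e-05 and adjusted p = 0.922 from edgeR). Its levels were 2.61, 1.16 and 1.42 against 2.15, 1.17, 1.49 and 1.03 CPM in trained mice, with 4.36 to 7.44 CPM in CR and 0.827 to 1.26 CPM in control mice. Liver also makes this enzyme, the 3 CR mice held the hepatocyte marker mRNAs given above, and the part of those mRNAs was not tested. Setbp1, a DNA-binding protein, stood at 14.6, 19.7 and 12.8 CPM in the CREX mice and 4.71, 6.42, 4.14 and 6.14 CPM in the EX mice (log2 fold change 1.54 ± 0.19 (SE), adjusted p = 0.00342) and had an interaction of 1.34 ± 0.28 (SE, unadjusted p = 0.000188 and adjusted p = 0.922 from edgeR). Mras, a Ras-like GTPase, rose by 0.79 ± 0.14 (SE) on the log2 scale in trained mice (adjusted p = 0.0115) and stood at -0.09 for CR against control (interaction 0.89 ± 0.23 SE, adjusted p = 0.941). Sufu, an inhibitor of hedgehog signalling, Creb3l1, a membrane-bound factor of matrix secretion, and Ctnna3, an alpha catenin, had interactions of 0.72, 1.36 and 0.80 on the log2 scale. On the other side, the tetraspanin Tspan4 and the water channel Aqp4 fell in trained mice (-0.70 ± 0.16 and -0.80 ± 0.17 SE, adjusted p = 0.0225 and 0.0181). Their interactions were -1.15 and -1.08. Tspan4 lost its call in trained mice without CREX replicate 2 or any 1 of EX replicates 1 to 4 (-0.80 to -0.54). Aqp4 lost its call without CREX replicate 3 or EX replicate 1, 2 or 3 (-1.02 to -0.62). Per2 and the unnamed transcript 4921517D16Rik had interactions of -1.31 and -2.60. None of these 10 interactions passed the correction for 13610 genes.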

How the data were processed

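Muscle mRNA was sequenced on a BGISEQ instrument with paired reads of 150 bp. Per the labels and the study's methods, the authors trimmed reads with trim-galore, aligned them to mm10 with STAR 2.7.10a and estimated counts per gene with RSEM, and they deposited these estimated counts as 1 table for the series, with 27 symbols turned into dates by a spreadsheet. The annotation and the strand setting are not given in the sources used here. The estimated counts were rounded to whole numbers. The 7 trained libraries were filtered with filterByExpr, scaled by TMM and tested with the robust quasi-likelihood fit of edgeR 4.0.16 in R 4.3.3, with Benjamini-Hochberg adjustment over all genes tested. The SE of a log2 fold change came from its size and the F statistic of its test. CPM used TMM factors of all 14 muscle libraries, and list deviations used log2(CPM + 0.1). The interaction (CREX - EX) - (CR - control) was fitted over 14 libraries. The scripts were tested on simulated data. Groups came from sample titles and conditions.

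The 40 gene lists and the comparison itself were chosen with earlier results of these data known. Genes were named by rule: the 10 largest changes each way among DEGs with non-overlapping libraries, leaving out clone names, the 5 DEGs each way with the highest counts, up to 4 DEGs of each list by p with its 2 most abundant members, of which a part is given, 5 interaction genes each way, and 7 genes the study discusses as muscle ligands under restriction, with training (Gpi1, Col4a1, Icam2, Cx3cl1 and Nampt) or without (Apoe and Col5a3). ATP8, Cd74, Egr1, Fbxo32, Fndc5, Kdr, Klf15, Mt1, Mt2, Musk, Myh1, Myh2, Nr3c1, Nr4a3, Scx, Sirt3, Trim63 and Tsc22d3 were added after their values were seen, and the marker lists name others. Some genes that the rule names are not reported here. Coordinates and promoters came from RefSeq on GRCm38.p6, matched by symbol, with a promoter for 75.4% of tested genes. Alternatives were DESeq2 1.42.0, other scalings and filters, a replicate block and each mouse left out. A permutation test of 3 against 4 mice cannot go below 0.0571 and was not used.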

Additional observations from a re-analysis of the deposited data

Results flagged for a closer look

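In the 4 EX mice, 10 of 207 quantities named here had 1 mouse farther from the others than Dixon's 95% limit allows, and chance flags about 1 in 20 groups. EX replicate 1 was high in adipocyte markers (gap of 0.991 of the range, 118 against 2.96 to 4.05 CPM) and in Fkbp5 (0.943, 18.0 against 10.2 to 10.7 CPM). EX replicate 2 was low in Atp5k (0.878, 34.5 against 40.8 to 41.7 CPM). EX replicate 3 was low in Dlat (0.919, 171 against 211 to 214.5 CPM) and high in Fabp3 (0.911, 449.6 against 384 to 390 CPM). EX replicate 4 was low in Hdac9 (0.916, 3.80 against 5.97 to 6.17 CPM) and in the sum of the immediate early genes (0.868, 348 against 444 to 459 CPM). The same mouse was high in Gpi1 (0.852, 1243 against 946 to 990.0 CPM), in ND1 (0.853, 36946 against 34306 to 34694 CPM) and in the sum of the neuromuscular junction list (0.841, 792 against 694 to 710 CPM). The groups did not overlap for Atp5k, Dlat, Fabp3, Fkbp5, Hdac9 and ND1. Without the mouse that stood apart, Dlat and Fabp3 lost their calls, and the other 4 kept theirs.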

How the results depend on the processing

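Against 1163 DEGs (485 higher, 678 lower), library totals gave 1153 higher and 485 lower, no fold minimum 1781 in all (868 higher), and unadjusted p 1957 (770 higher, 1187 lower). Leaving out 1 mouse gave 343 to 2570 DEGs, 172 to 954 higher and 171 to 1616 lower, lowest without CREX replicate 2 and highest without CREX replicate 1. DESeq2 gave 1495, other size factors 1160, the mitochondrial genome left out 1131 and at least 10 counts per library 1026. Interaction calls numbered 0, but 1 with DESeq2, 424 at unadjusted p, and 0 to 180 with 1 mouse left out (180 without CREX replicate 1, 1 without CR replicate 1). The first component held 55.3% with all genes kept. Of 118 DEGs named, 59 were called in every alternative. Among them 0 reversed, which their selection on the same mice made likely. Uncalled genes reversed in 14 cases. These were Dcn (0.00 with at least 10 counts, -0.02 with the replicate block, -0.08 to 0.12 with 1 mouse left out), Lamb2 and Ctnna3 (0.01 and 0.04 under library totals), Amd1 (-0.42 to 0.09 with 1 mouse left out), Col5a3 (-0.04 to 0.14), Cox6a2 (-0.02 to 0.18), Gnmt (-0.21 to 0.49), and, without CREX replicate 3, Egr1 (3.59 with all mice, -0.38 to 4.15) and Nr4a1 (1.07, -0.50 to 1.5). Of 519 list medians under alternatives 468 stayed within the spread between mice. Where an alternative changed a call, the cause was not tested.

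A replicate block gave 646 DEGs (256 higher, 390 lower) and 0 interaction calls. Deviations from the group mean correlated at 0.208, 0.0051 and -0.124 between same-numbered CREX and EX mice. Between same-numbered CR and control mice they correlated at 0.306, 0.152 and -0.0204. CREX replicate 1 correlated best with EX replicate 1, and CREX replicates 2 and 3 with EX replicate 4 (0.21 and 0.176). So few pairs cannot show whether the numbers pair the mice. With 3 against 4 mice, changes under 1.5-fold and genes near 3 counts could not be resolved well. In counts simulated for these 7 libraries, 67 of 100 genes changed 2-fold were called, as were 5 unchanged genes. Changes of 2-fold could thus also be missed.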

Other observations

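The remaining cell type markers gave few calls. Summed over 6 markers of fibro-adipogenic progenitors, levels were 304, 276 and 296 CPM in the CREX mice and 278 to 368 CPM in the EX mice, with 2 markers lower and 0 higher. Smooth muscle and pericyte markers stood at 378, 228 and 213 CPM against 290.5 to 379 CPM, low in CREX replicates 2 and 3. Schwann cell markers ran from 25.4 to 59.6 CPM in CREX and from 24.96 to 73.9 CPM in EX, and erythroid markers from 423 to 1347 CPM and from 606.5 to 1057 CPM. Each of these 3 lists had 0 DEGs. Neutrophil markers reached at most 0.404 CPM and lymphocyte markers at most 0.657 CPM in the 7 mice.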
